A study of Mus musculus with 4 samples.

Results

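The chromatin positions of RYBP were mapped by ChIP-seq, sequencing of the DNA precipitated with a protein by an antibody, in FLK1+ mesoderm of mouse embryoid bodies (EBs), and 372 of the 22409 merged RYBP regions (1.66%) lay at the start of a noncoding RNA gene and away from every protein-coding start. A region belonged to this set when it was under 4000 bp wide, when more than 2.5 kb separated it from each transcript start of a protein-coding gene, and when a transcript start of a noncoding gene lay inside it or within 1 kb. Noncoding genes were those that GENCODE, a manually curated gene annotation, types as lincRNA (long intergenic noncoding RNA), processed_transcript (transcripts without an open reading frame, many of them antisense to a gene) or miRNA (precursors of microRNAs). The choice was by the position and width of the called regions and used no enrichment value. Width is tied to replicate sharing, since all 644 merged regions of 4000 bp or more were found in both replicates. All 4 samples came from wild-type C57Bl/6 X Sv129 embryonic stem cells differentiated as EBs, from which FLK1+ cells were isolated at day 3.75 according to the labels and at a slightly later day according to the methods of the study. The design text adds that the cells were PDGFRa- and came from 2 independent differentiations, although it names SCL as the precipitated protein where the title and the antibody (anti-DEDAF, an older name of RYBP) name RYBP. The 2 RYBP_ChIP replicates form 1 group, and the 2 input samples, chromatin that was not precipitated, were not analysed here. There was thus no second condition to compare, the isolated population could not be checked against markers in lists of peaks, and each comparison below sets these regions beside other RYBP regions of the same 2 samples.

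RYBP (RING1 and YY1 binding protein) is a subunit of non-canonical Polycomb repressive complex 1, which monoubiquitinates histone H2A. Complexes of this kind occupy unmethylated CpG islands, stretches rich in the dinucleotide CpG that overlie many promoters, through partners such as KDM2B. Long noncoding RNA genes and microRNA host genes often start at such islands as well, whereas a microRNA annotated alone starts at its hairpin, which the cell cuts out of a longer primary transcript whose own start can lie far upstream.

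The sequences of 4 starts give examples of CpG content in the set and do not span its full range. They are given 5′ to 3′ along the noncoding transcript, 100 bases on each side of the annotated start in mm9, with each CpG in capitals. The first 3 belong to the members with the strongest calls in both replicates among lincRNA, processed_transcript and miRNA genes, and the fourth to the strongest member that was poor in CpG. All 4 regions contain their start, and regions with near-identical copies elsewhere were left out. They lie at chr11:69153863-69154063 on the plus strand, chr2:25995941-25996141 on the minus strand, chr11:79525371-79525571 on the plus strand and chr12:112669057-112669257 on the minus strand.
A030009H04Rik: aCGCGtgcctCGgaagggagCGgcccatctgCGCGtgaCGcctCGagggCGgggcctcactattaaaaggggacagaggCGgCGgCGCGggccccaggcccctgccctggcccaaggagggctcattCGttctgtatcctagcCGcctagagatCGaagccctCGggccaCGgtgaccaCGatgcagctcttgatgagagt
C330006A16Rik: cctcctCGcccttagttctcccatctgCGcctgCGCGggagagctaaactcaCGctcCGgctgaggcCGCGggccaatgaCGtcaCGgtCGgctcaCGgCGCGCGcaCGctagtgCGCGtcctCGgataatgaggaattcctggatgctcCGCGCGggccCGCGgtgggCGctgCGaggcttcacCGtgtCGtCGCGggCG
Mir193: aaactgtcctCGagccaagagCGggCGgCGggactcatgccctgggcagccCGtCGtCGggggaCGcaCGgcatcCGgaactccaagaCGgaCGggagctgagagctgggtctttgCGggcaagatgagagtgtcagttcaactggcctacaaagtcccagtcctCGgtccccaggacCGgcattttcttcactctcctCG
Gm10425: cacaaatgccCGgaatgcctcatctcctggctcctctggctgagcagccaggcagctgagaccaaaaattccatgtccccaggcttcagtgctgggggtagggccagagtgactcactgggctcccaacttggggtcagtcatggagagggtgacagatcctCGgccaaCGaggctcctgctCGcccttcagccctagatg
These windows held 19, 31, 16 and 4 CpG, which is 9.45, 15.4, 7.96 and 1.99 per 100 bp.

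Mature microRNA sequences were matched for 29 of the 33 Mir genes whose starts lay by these regions. Those printed here share a seed, bases 2 to 8 and the part that pairs with target messages, with another microRNA from a RYBP-occupied locus, or belong to a locus described below (RefSeq sequences, seed in capitals). miR-17-5p and miR-20a-5p are cut from the transcript of Mir17hg.
mmu-miR-193a-3p: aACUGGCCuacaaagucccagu
mmu-miR-193b-3p: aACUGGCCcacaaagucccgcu
mmu-miR-17-5p: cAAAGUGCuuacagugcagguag
mmu-miR-20a-5p: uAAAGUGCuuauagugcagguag
mmu-miR-291a-3p: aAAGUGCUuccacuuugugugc
mmu-miR-294-3p: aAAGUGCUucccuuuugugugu
mmu-miR-9-5p: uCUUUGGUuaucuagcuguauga
mmu-let-7i-5p: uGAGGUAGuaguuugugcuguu
miR-193a-3p and miR-193b-3p, whose genes lie on different chromosomes and each had a RYBP region in both replicates, have the same seed. So do miR-291a-3p and miR-294-3p of the embryonic stem cell cluster, and miR-17-5p and miR-20a-5p.

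By gene type, 162 regions lay by lincRNA starts, 155 by processed_transcript starts, 45 by miRNA starts and 10 by starts of several types. Together they touched 376 noncoding genes, and a transcript annotated as antisense started by 72 of the regions. The noncoding start itself lay inside 218 of the 372 regions (58.6%). Among the 11346 RYBP regions under 4000 bp within 1 kb of a coding start, 77.9% contained that start. Noncoding genes with several RYBP regions at their starts were few, 24 of the 348 genes that were nearest to a region. Chromosomes 2, 4 and 11 held 34.4% of the regions, against 26.1% of all merged regions and 36.8% of the noncoding genes away from coding starts, so the regions followed the annotated genes here.

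**Figure D1:**
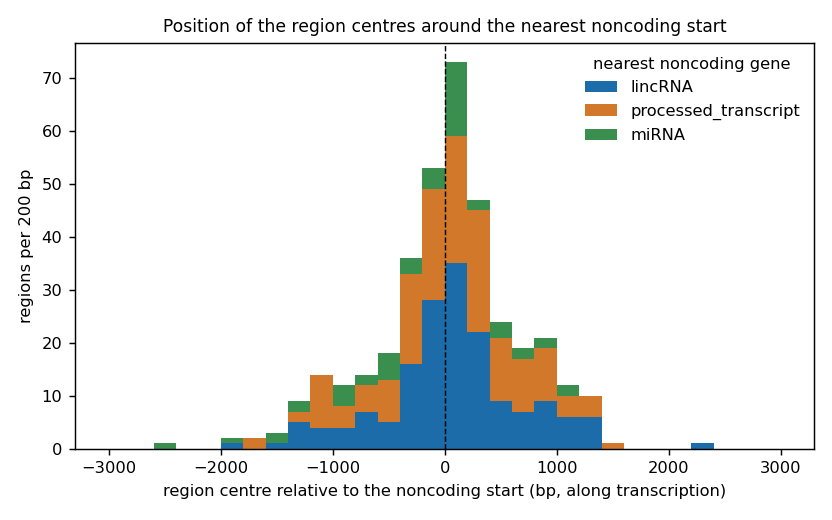
Position of each of the 372 region centres relative to the nearest noncoding start, in bp along the direction of transcription (x axis), as the number of regions per bin of equal width (y axis), stacked by the type of the nearest gene. The rule kept only regions with a start inside or within 1 kb, so the centres gather around the start by construction. The start lies inside 218 of the regions, and the nearer edge of the others is at most 997 bp away from it.

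Noncoding starts away from coding genes were occupied less often than coding starts as a whole, and the shares were near each other in most classes of CpG density. Of 3898 noncoding genes with a start more than 2.5 kb from every coding start, 394 had a RYBP region under 4000 bp within 1 kb of such a start (10.1%, exact 95% interval 9.18 to 11.1). The share depended on how peaks were selected, and was 6.59% with peaks of −log10 q of at least 2 and 5.41% with regions found in both replicates only. This share was 26.9% for lincRNA genes (164 of 609), 8.57% for processed_transcript genes (166 of 1938) and 4.74% for miRNA genes (64 of 1351). It was 50.2% for 22350 protein-coding genes on the same chromosomes counted in the same way, regions of 4000 bp or more being left out for both kinds of gene, and 53.8% of 22380 coding genes had a merged region of any width within 2.5 kb of a start. CpG density was taken in the kilobase around the most CpG-dense start of each gene, and a region at any of its starts counted. The number of starts per gene was not matched between coding and noncoding genes. Where this kilobase held at least 3 CpG per 100 bp (CpG-rich), 240 of 390 noncoding genes were occupied (61.5%, 56.5 to 66.4). Where it held fewer (CpG-poor), 154 of 3508 were (4.39%, 3.74 to 5.12). The corresponding shares of coding genes were 78.2% and 7.13%. In finer classes of CpG density, the noncoding and the coding share were 17.1% and 20.1% at 2 to 3 CpG per 100 bp, 43.2% and 50.8% at 3 to 4, 67.9% and 68.5% at 4 to 6, and 79.4% and 81.2% at 6 to 8. Their intervals overlapped in each of these 4 classes. They did not overlap at 1 to 2 CpG per 100 bp, where 4.30% of noncoding and 8.25% of coding genes were occupied, nor at 8 or more, where 78.6% and 91.0% were. Within CpG-rich starts, lincRNA genes were occupied in 68.7% (61.4 to 75.3), processed_transcript genes in 56.2% (48.0 to 64.2) and miRNA genes in 52.7% (38.8 to 66.3). All such intervals cover counting error over genes or regions only, and neither are replicates.

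**Figure D2:**
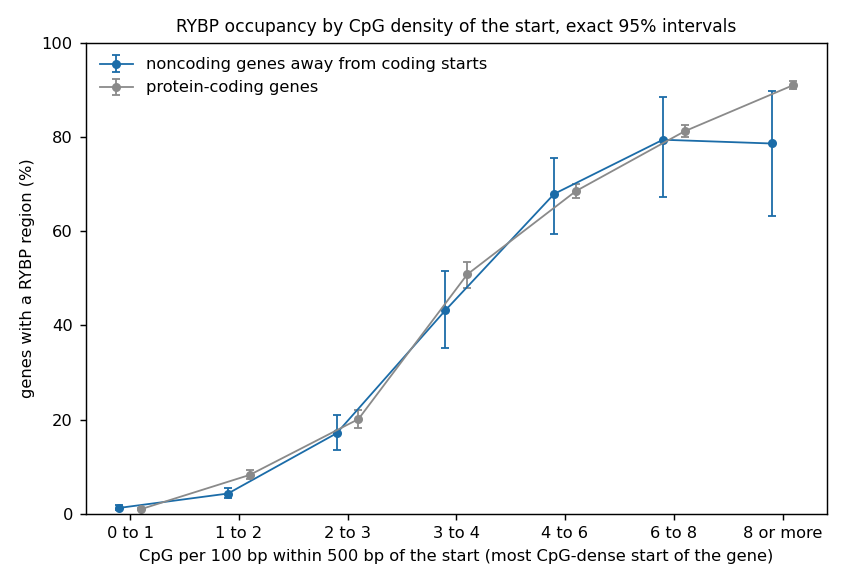
Share of genes with a RYBP region under 4000 bp within 1 kb of a start (y axis, %) against the CpG density around the most CpG-dense start of the gene (x axis, CpG per 100 bp), for noncoding genes away from coding starts (blue) and protein-coding genes (grey), with exact 95% intervals over genes. Both curves rise from about 1% in the lowest class (1.25% and 0.983%) to 78.6% and 91.0% in the highest.

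Across the 2 replicates, 181 of the 372 regions were overlapped by a peak of each (48.7%, exact 95% interval 43.5 to 53.9). A further 60 had a peak in replicate 1 alone and 131 in replicate 2 alone. Of all merged regions, 44.2% were found in both replicates, as were 59.1% of the 12675 regions under 4000 bp by coding starts and 18.1% of the 8718 remaining distal regions, those under 4000 bp away from coding and noncoding starts. The share over all merged regions includes the 644 regions of 4000 bp or more, all of them found in both replicates. The noncoding starts thus lay between the coding starts and the distal regions. LincRNA and miRNA regions were found in both in 52.5% and 55.6%, and processed_transcript regions in 42.6%, with overlapping intervals (44.5 to 60.4, 40.0 to 70.4 and 34.7 to 50.8).

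Sharing was higher in CpG-rich than in CpG-poor regions. The regions held a median of 3.89 CpG per 100 bp (quartiles 2.18 and 6.04), against 6.18 in regions by coding starts and 1.80 in the remaining distal regions. CpG-rich regions were 235 of the 372 (63.2%), and 66.0% of them were found in both replicates (59.5 to 72.0). Of the 137 CpG-poor regions, 26 were (interval 12.8% to 26.6%). The CpG-rich regions were also wider (median 1071 against 676 bp). Their median fold enrichment was 3.42 against 3.14 in replicate 1 and 3.77 against 3.25 in replicate 2. The part of each difference in the sharing was not tested. The same split gave 68.4% and 15.5% by coding starts, and 48.7% and 7.60% in the remaining distal regions. The intervals of CpG-rich regions at noncoding starts and of CpG-rich distal regions (46.6 to 50.8) did not overlap. The former also had more CpG (median 5.50 against 4.51 per 100 bp) and were wider (median 1071 against 702 bp), and the part of these differences was not tested. Regions that contained the noncoding start were shared in 67.0% (60.3 to 73.2) and those beside it in 22.7% (16.4 to 30.2). The regions that contained the start also had more CpG (median 4.93 against 2.52 per 100 bp) and were wider (median 1121 against 600 bp), and these differences cannot be told apart here. Regions found in both replicates had a median width of 1409 bp, against 567 bp in replicate 1 alone and 550 bp in replicate 2 alone. A merged region joins the peaks of both replicates, so a shared region is wider in part by construction.

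**Figure D3:**
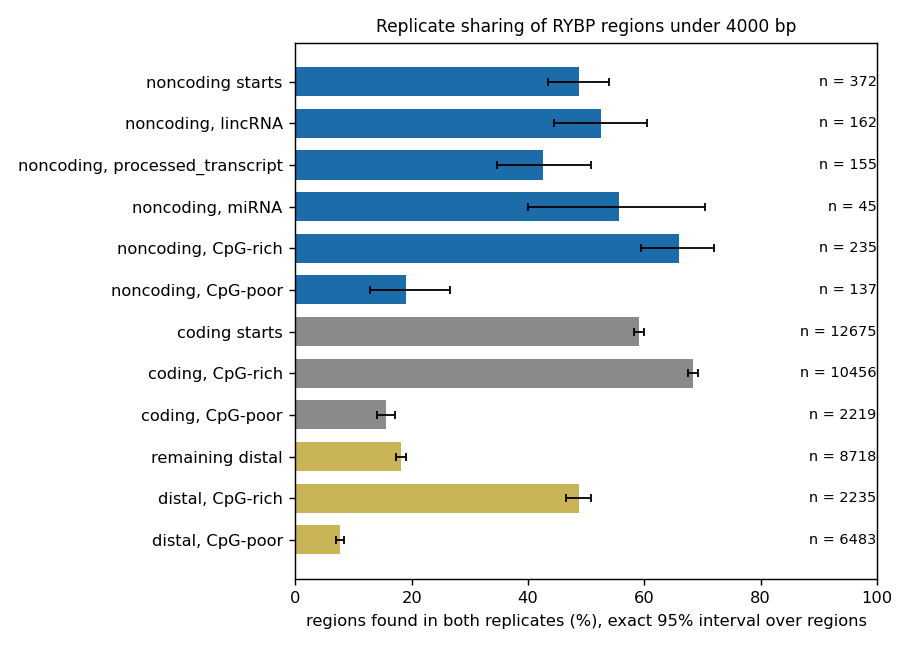
Share of RYBP regions found in both replicates (x axis, %; bars start at 0) for regions at noncoding starts (blue), by coding starts (grey) and in the remaining distal set (yellow), split by gene type and at 3 CpG per 100 bp, with exact 95% intervals over regions and the number of regions. CpG-rich noncoding starts (66.0%) sit near CpG-rich coding starts (68.4%), and CpG-poor noncoding starts (26 of 137 regions) far below both.

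Most regions of 1 replicate had no peak of the other replicate close by. For 12 of the 60 regions of replicate 1 alone, and for 12 of the 131 of replicate 2 alone, the nearest peak of the other replicate lay within 1000 bp. The median distance was 7724 bp and 12268 bp. The same share over all single-replicate regions was not computed, so these counts do not set the members apart from other RYBP regions. The single-replicate region of highest enrichment in replicate 1 was at AC160109.1, a clone-named miRNA gene nearest to Enc1 (4.12-fold). In replicate 2 it was at the lincRNA gene 2610206C17Rik (5.17-fold), a region of 266 bp with 15.0 CpG per 100 bp.

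The fold enrichment, the linear ratio of pile-up to local background from the authors' peak caller, was modest. Its median over the regions was 3.30 in replicate 1 (n = 241 regions) and 3.54 in replicate 2 (n = 312), against 3.30 and 3.60 over all merged regions. Of the 181 regions found in both, 133 (73.5%) had the higher value in replicate 2, as did 77.7% of all merged regions found in both. The values of both replicates were loosely related across these 181 regions (Spearman's rho 0.38, a description, since the regions share the same libraries), against 0.48 across all 9901 shared regions. The fold enrichment reached 5 in both replicates at 6 starts.

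**Figure D4:**
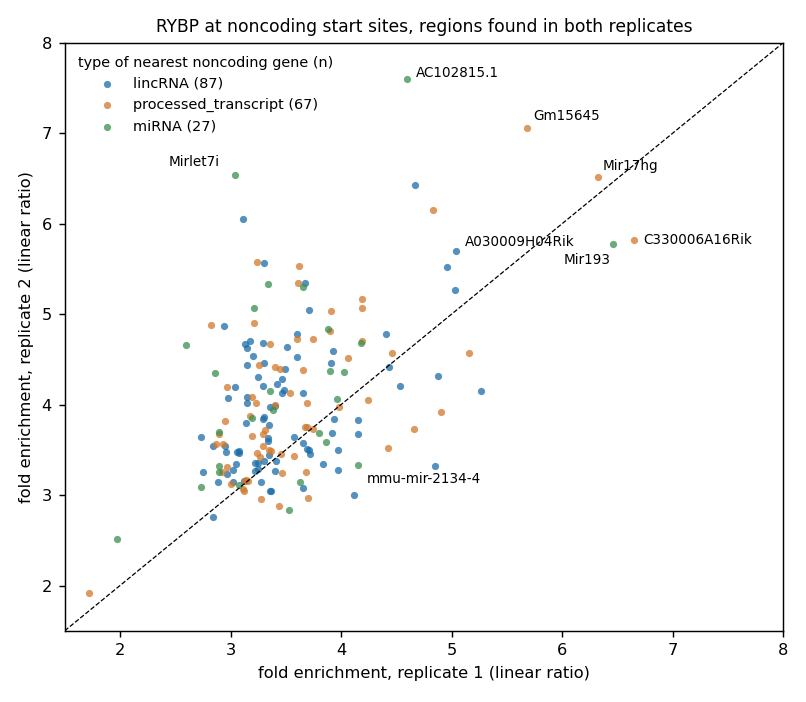
Fold enrichment (linear ratio) in replicate 1 (x axis) and replicate 2 (y axis) of the 181 regions at noncoding starts found in both replicates, coloured by the type of the nearest noncoding gene; the dashed line marks equal values. Most points lie above the line (133 of 181), and Mir17hg, Gm15645, Mir193, C330006A16Rik and A030009H04Rik, together with Gm16997 (not named in the plot), stand at 5 or more in both.

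Mir17hg, the host gene of the miR-17-92 cluster, which is oncogenic in lymphoid cells, had 6.32-fold enrichment in replicate 1 and 6.51-fold in replicate 2. Its region, chr14:115439153-115441777, ended 324 bp upstream of the annotated start, held 12.6 CpG per 100 bp, and lay 49660 bp from the nearest coding start, that of Gpc5. The Mir17, Mir20a and Mir19b-1 hairpins inside the transcript had no region within 1 kb. Mir193, the gene of miR-193a printed above, had 6.46-fold and 5.77-fold enrichment over 2004 bp that included the hairpin start. Its relative Mir193b had 3.21-fold and 5.07-fold, in a region 852 bp from the hairpin, so that the replicates were close at the first gene and apart at the second.

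C330006A16Rik shared its region with 1810012K08Rik, a second noncoding gene, and had 6.65-fold and 5.82-fold enrichment, 15350 bp from the start of Nacc2. RefSeq, a second annotation, lists this gene as protein-coding under another symbol. Gm15645, whose transcript runs antisense to Dchs1, a protocadherin of planar cell polarity, had 5.68-fold and 7.06-fold enrichment over an exon of Dchs1. Both regions were thus strong in each replicate, and the order of the replicates differed between them. Among lincRNA genes, A030009H04Rik had 5.04-fold and 5.70-fold, 5430416N02Rik 4.67-fold and 6.43-fold, and Gm16997 5.03-fold and 5.27-fold. AI854517, which RefSeq names Mir9-3hg as the host of a gene for the neural miR-9, had 4.96-fold and 5.52-fold. Gm11527, a processed_transcript gene with transcripts typed as lincRNA, shares its region with 4833417C18Rik and had 3.91-fold and 5.03-fold.

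A miRNA gene lay by 52 of the regions. For 26 of them every miRNA gene by the region carried a clone name or belonged to the mir-2134 group, entries that the annotation types as miRNA and that were not matched to mature sequences. The other 26 had a gene named Mir, and 16 of these were found in both replicates. Mirlet7i, a let-7 gene, had 3.04-fold enrichment in replicate 1 and 6.54-fold in replicate 2, the hairpin lying inside a region of 11.6 CpG per 100 bp. Mir148a had 4.18-fold and 4.68-fold, Mir203, known from epidermal differentiation, 3.88-fold and 4.83-fold, and Mir760, which shares its region with the lincRNA gene Gm17494, 4.41-fold and 4.78-fold. Mir129-2, Mir219-2 and Mir137, genes of microRNAs best known from the nervous system, had 3.38-fold and 3.94-fold, 3.80-fold and 3.69-fold, and 3.19-fold and 3.85-fold. These 3 loci lay in regions of 4.39, 5.76 and 4.51 CpG per 100 bp, above the median of the set.

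Other Mir genes found in both replicates were Mir375, a pancreatic islet microRNA gene (2.60-fold and 4.66-fold), Mir210, which is induced by hypoxia (3.53-fold and 2.84-fold), Mir1966 (2.90-fold and 3.32-fold), Mir135b (2.90-fold and 3.25-fold) and Mir709, in an intron of Rfx1 (2.73-fold and 3.09-fold). One region of 1486 bp covered or neighboured the starts of Mir290, Mir291a, Mir291b, Mir292, Mir293 and Mir294, the cluster that embryonic stem cells express most strongly, with 3.63-fold enrichment in replicate 1 and 3.15-fold in replicate 2. The caller's −log10 q, its measure of confidence, was 3.09 and 1.36 there, and the median of the set in replicate 2 was 2.52, so the call of that replicate was below it. Mir709 (1.07 and 1.42) and Mir135b (1.56 and 2.36) were below the median of each replicate, which was 2.25 in replicate 1. So were Mir210 in replicate 2 (1.29), and Mir375 (1.84) and Mir1966 (2.08) in replicate 1. Of the genes above, Mirlet7i (2.00), Mir193b (1.78) and Mir137 (1.53) were below it in replicate 1. The highest replicate 2 enrichment of the whole set, 7.60-fold, fell on AC102815.1, a clone-named miRNA gene with 10.8 CpG per 100 bp, which had 4.60-fold in replicate 1. The clone-named genes AL603828.1 (3.66-fold and 5.30-fold), AC129563.1 (3.90-fold and 4.37-fold), AC157561.1 (3.86-fold and 3.59-fold), AC124807.1 (3.36-fold and 4.15-fold), AC123610.1 (3.08-fold and 3.11-fold) and AL645484.1 (2.90-fold and 3.70-fold) were found in both replicates as well. The −log10 q of AC123610.1 (2.05 and 1.74) and AL645484.1 (1.40 and 2.18) was below both medians, and that of AC124807.1 (1.95) in replicate 1. A region by the starts of AC044864.1, AC044864.2 and the lincRNA gene Gm3764 had 4.03-fold and 4.36-fold.

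Some of the most confident calls fell on repeated sequence. For 21 regions, at least 50% of the sequence had a copy elsewhere in mm9 with at least 90% identity, and 16 of these were found in both replicates. At mmu-mir-2134-4, in an intron of C230081A13Rik, the −log10 q was 25.1 and 21.6, the largest of the set by the smaller replicate value, while the fold enrichment was 4.15 and 3.33. At 2610005L07Rik, which has 4 copies and which RefSeq types as a transcribed pseudogene, the −log10 q was 14.3 and 15.6 with 4.06-fold and 4.51-fold enrichment. At Pisd-ps2, another transcribed pseudogene, it was 10.8 in each replicate with 3.54-fold and 4.13-fold. AC115697.1 (2.86-fold and 4.35-fold), AC113316.1 (1.97-fold and 2.51-fold) and AL807811.1 (3.96-fold and 4.06-fold) were of this kind too. The alignment dropped reads that matched more than 2 positions, and the effect of this on these regions was not tested. Without the 21 regions, 351 remained, of which 47.0% were found in both replicates.

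Genes with a known noncoding role were read from lists of symbols matched to GENCODE, so a gene annotated under another name could be missed. Of 9 annotated imprinted noncoding genes, 3 had such a region. H19, the maternally expressed growth restrictor, had 2 regions that were 102 bp apart. One was found in replicate 1 alone (chr7:149763700-149764892, 3.40-fold) and contained the start of H19, and the other in replicate 2 alone (chr7:149763382-149763597, 3.53-fold), nearer to Mir675, the microRNA gene inside H19. The locus was thus marked in each replicate although neither region counts as shared. Airn, the paternal silencer of Igf2r, had 3.41-fold and 3.38-fold enrichment at a start in an Igf2r intron with 7.07 CpG per 100 bp, and a second region in replicate 2 alone (3.34-fold). Meg3, of the Dlk1 domain, had 2.95-fold in replicate 2 alone, with a −log10 q of 1.07 against a median of 2.52 in that replicate. In the same domain a region of replicate 2 alone (3.03-fold, −log10 q 1.16) covered or neighboured the starts of Mir136, Mir432 and Mir434, antisense to Rtl1. Nespas had a region by a coding start, and Rian, Mirg, Mir335, Mir296 and Mir298 had none. Of the 4 annotated X inactivation genes on the list, Xist, Tsix, B230206F22Rik and 6720401G13Rik, none had a region, and 8 of the 372 regions lay on chromosome X.

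Of 36 noncoding genes linked to developmental regulators, 12 had a region at the start, 4 had one by a coding start, 10 lay in a wide region of 4000 bp or more and 10 had none. The 12 included Mir129-2, Mir137, Mir203, Mir219-2 and Mir375 above. Sox2ot, whose transcription unit contains the pluripotency and neural gene Sox2, had 2 regions found in both replicates, with 3.22-fold and 3.36-fold at the first, which it shares with Mir1897, and 3.05-fold and 3.34-fold at the second. The −log10 q was below the median of each replicate at the first (1.61 and 1.81) and at the second (1.56 and 1.71). C130071C03Rik, the host of Mir9-2, had 3.30-fold and 4.46-fold, while the region nearest to Mir9-2 itself was found in replicate 2 alone (3.10-fold). Miat had 3.42-fold and 4.23-fold. Single-replicate regions stood at Mir124a-1 (3.21-fold, replicate 1), Mir205 (3.25-fold, replicate 1) and Mir34a, a p53 target (3.24-fold, replicate 2). The listed Hox-linked noncoding genes were mostly outside the set by its width limit: 9 of 11 lay in wide regions, among them Mir10a, Mir10b and Mir196b, Hoxa11as had a region by a coding start, and 1700042O10Rik had none. Outside the list, 1700109F18Rik, which RefSeq names Hoxd3os1, had a region of the set in replicate 2 alone (4.55-fold).

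Of 32 genes of blood and mesodermal noncoding RNAs, 28 had no region within 1 kb of the start, including Mir126, Mir142, Mir144, Mir223 and Mir451. The others were Mir17hg, Dleu2, the host of Mir15a and Mir16-1 (3.60-fold and 4.53-fold), and Mir143 and Mir145, smooth muscle microRNA genes that share 1 region found in replicate 2 alone (3.61-fold). Outside the list, Gm11616, which RefSeq names Bloodlinc, had 3.63-fold in replicate 2 alone. Of 11 listed pluripotency genes, 5 had a region, and these were genes of the Mir290 cluster that share 1 region. Mir295 and the Mir302 cluster with Mir367 had none. Outside the list, 2810011L19Rik, which RefSeq names Tunar, had 4.88-fold and 4.32-fold. Gm16880, which RefSeq names Platr22, had 3.18-fold in replicate 2 alone. Of 8 listed hosts of small nucleolar RNAs, Snhg5 (4.14-fold, replicate 2 alone), Snhg7 (3.24-fold, replicate 2 alone) and Snhg12 (3.29-fold, replicate 1 alone) had one, each in a single replicate. Snhg3 had a region by a coding start, and the other 4 of the list had none. Outside the list, 9430008C03Rik, which RefSeq names Snhg17, was found in both replicates (2.96-fold and 3.48-fold). Gm11974 (Snhg15, 2.78-fold) and 2810008D09Rik (Snhg20, 3.30-fold) had a region in replicate 2 alone. Of 15 widely expressed noncoding genes, Miat, Mirlet7i and Pvt1 had one, Tug1 had a region by a coding start, and 11 had none. Pvt1, next to the growth regulator Myc, had 2.94-fold and 4.87-fold, with a −log10 q of 1.35 in replicate 1, below the median of the set. For all noncoding genes away from coding starts the share with a region was 10.1%, as above. By type it was 4.74% for miRNA, 8.57% for processed_transcript and 26.9% for lincRNA genes. Most genes of the blood and pluripotency lists are miRNA genes. The lists also keep genes by coding starts or in wide regions, unlike these shares. They were drawn up with earlier results known, so these counts are a description.

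The rule kept every region more than 2.5 kb from a coding start, so some distance to coding genes was built in. The median gap from a region to the nearest coding start was 18692 bp (quartiles 7960 and 48237). In the remaining distal regions, chosen with the same limit, it was 15230 bp (6582 and 37086). Of the regions at noncoding starts, 123 (33.1%) lay within 10 kb of a coding start and 29 beyond 100 kb. The noncoding and the coding gene lay on the same strand in 164 cases (44.1%), divergent in 110 (29.6%) and convergent in 98 (26.3%), and within 10 kb these counts were 40, 42 and 41. The nearest coding start had a RYBP region within 2.5 kb for 209 of the regions (56.2%, 51.0 to 61.3), against 66.0% for the remaining distal regions and 53.8% of all coding genes. Relative to coding genes, 287 regions were intergenic, 42 overlapped a coding exon and 43 lay in introns. Those in introns were found in both replicates in 30.2% (17.2 to 46.1), against 51.9% (46.0 to 57.8) of the intergenic ones, and had 2.06 against 4.19 CpG per 100 bp at the median. Of the 85 regions inside a coding gene, the noncoding transcript ran antisense to it in 61 and sense in 24.

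Developmental transcription factor genes were the nearest coding genes of 21 regions (5.65%, 3.53 to 8.50). This share was 5.60% over all merged regions, 8.68% over the remaining distal regions and 36.0% over wide regions, and these families make up 1.56% of coding genes. Thus the share at noncoding starts was close to the RYBP background and below that of the wide regions. The factor gene's start lay within 10 kb for 7 of the 21 regions. Of the 21 regions, 15 were found in both replicates (71.4%, 47.8 to 88.7), and for 19 of them the nearest coding start also had a RYBP region, the exceptions being Gm16956 (Foxn3) and Gm12462, in an intron of the B cell factor gene Pax5.

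**Figure D5:**
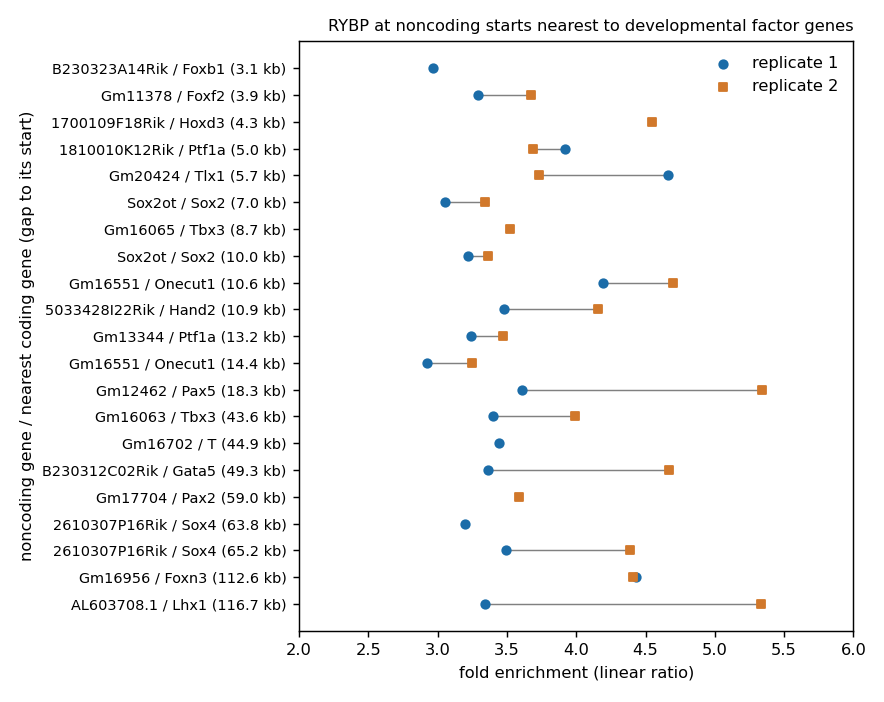
Fold enrichment (x axis, linear ratio) in replicate 1 (circles) and replicate 2 (squares) at the 21 noncoding starts nearest to a developmental transcription factor gene (y axis: noncoding gene, coding gene and gap in kb, sorted by gap). A line joins the values of the 15 regions found in both replicates, and a single symbol marks a region of 1 replicate.

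Several of these factors act in mesoderm. 5033428I22Rik, 10862 bp from Hand2, a cardiac and limb factor gene, had 3.48-fold and 4.16-fold enrichment. Gm16063 and Gm16065, both nearest to the cardiac and limb gene Tbx3, differed, with 3.40-fold and 3.99-fold at the first and 3.52-fold in replicate 2 alone at the second. B230312C02Rik, 49257 bp from the endoderm and cardiac gene Gata5, had 3.36-fold and 4.67-fold. Gm11378, 3867 bp from Foxf2, had 3.29-fold and 3.67-fold. Gm16702, 44931 bp from T (Brachyury, which marks early mesoderm), was found in replicate 1 alone (3.44-fold). AL603708.1, 116724 bp from Lhx1, had 3.34-fold and 5.33-fold. 2610307P16Rik had 3.49-fold and 4.39-fold at one start, 65240 bp from Sox4, and 3.20-fold in replicate 1 alone at another, 63784 bp from Sox4. At 1700109F18Rik, inside the Hoxd cluster 4327 bp from a Hoxd3 start, a region of 262 bp with 0.763 CpG per 100 bp was found in replicate 2 alone (4.55-fold).

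The other factors are best known from other tissues. Gm13344 (3.24-fold and 3.47-fold) and 1810010K12Rik (3.92-fold and 3.69-fold) both lay nearest to Ptf1a, a pancreatic and cerebellar factor gene. Gm16551 had 2 regions nearest to the liver and pancreas gene Onecut1, with 4.19-fold and 4.70-fold at the first and 2.92-fold and 3.25-fold at the second. Gm12462 had 3.61-fold and 5.34-fold, Gm20424, by the spleen factor gene Tlx1, 4.66-fold and 3.73-fold, and Gm16956 4.43-fold and 4.41-fold. Gm17704, 59043 bp from Pax2, was found in replicate 2 alone (3.59-fold), and B230323A14Rik, over an exon of Foxb1, in replicate 1 alone (2.97-fold).

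The noncoding label depended on the annotation. Of the 372 nearest noncoding genes, counted once per region, 236 (63.4%) were matched in RefSeq by symbol or synonym, too few to compare shares. Among the matched ones, 164 were lncRNA, 34 protein-coding, 21 miRNA and 14 transcribed pseudogenes. The 34 included Spata5l1, an ATPase gene (4.83-fold and 6.15-fold), Tdrd5, a germline gene (3.30-fold and 5.56-fold), Ascl4 (3.24-fold and 5.58-fold) and Usp35 (4.19-fold and 5.17-fold), which were named after their values were seen. Without these 34 regions, 338 remained, of which 47.9% were found in both replicates.

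The regions nearest to each limit of the rule, on either side of it, were as follows. The widest member was that of Gm11378, of 3943 bp, and the narrowest region left out for width alone lay at Gm17580, of 4018 bp (25 left out). The member closest to a coding start was that of Gm13330, 2546 bp from A930004D18Rik, and a region at 2010001M06Rik was left out at 2456 bp from Abhd11 (894 left out). The region farthest from its noncoding start was one at Gm12676, at 997 bp, and one at Gm12756 was left out at 1009 bp.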

How the data were processed

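RYBP ChIP-seq was read from 2 deposited peak lists and a merged list. According to the study's methods and the submitters' processing notes, reads were aligned to mm9 with Bowtie 1.1.2b (reads with more than 2 reportable positions dropped), duplicates were removed and broad peaks were called per replicate with MACS2 2.0.10. The deposited lists give a fold enrichment (a linear ratio), −log10 p and −log10 q for each peak, and a score, which the authors' caller derives from −log10 q. The authors' merged list equals the union of both lists (22409 of 22409 regions), after replicate 2 starts were moved by 1 bp. The files give no read depth. The study's reporting summary states a larger number of mapped reads for replicate 1, whose peak list is the shorter one. No depth entered a calculation, and intervals cover counting error only.

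Regions were classed against GENCODE vM1 on NCBIM37 (mm9). Its gene types hold 3 of the 4 types in the rule, since antisense is there a transcript type. A region was found in a replicate when a peak overlapped it by at least 1 bp, and its fold enrichment was the highest of those peaks. CpG-rich meant at least 3 CpG per 100 bp. Shares have exact Clopper-Pearson 95% intervals. With 2 replicates of 1 group no test between samples was made, and classes of regions were compared by description. Copies were found with minimap2 2.31. Mature microRNAs and second gene types came from RefSeq (GRCm38.p6), whose coordinates were not used. Python 3.11.15, pandas 2.3.3, SciPy 1.17.1 and pysam 0.24.0 were used, and the classing was tested on simulated regions.

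Members and lists were chosen with earlier results of these data known. Genes named were, per type, the shared members with the highest smaller −log10 q (5 for lincRNA and processed_transcript, all for miRNA), the highest single-replicate member of each replicate, listed genes, members with 3 or more noncoding genes, those at the limits and their nearest coding genes. Neighbours of developmental factors, the fold of 5 in both replicates, the starts printed and genes coding in RefSeq were chosen after their values were seen.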

Additional observations from a re-analysis of the deposited data

How the results depend on the processing

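Alternatives were other distance limits (500 bp to the noncoding start, 5000 bp to coding starts), protein-coding transcripts only, no width limit, peaks with −log10 q of at least 2, overlap over 50% of the region in each replicate, each replicate left out and, chosen after seeing the data, regions found in both replicates only. The number of regions was 233 with the stricter q and 181 with shared regions only, and 250 to 328 with 1 replicate left out (250 without replicate 2). The share found in both replicates was 54.6% with the 500 bp limit and 34.4% with overlap over 50% of the region. The median fold enrichment rose to 3.60 and 3.96 with the stricter q, and to 3.85 in replicate 2 in shared regions only. The median CpG density was 4.30 per 100 bp with the 500 bp limit, 5.02 with the stricter q, 5.06 in shared regions only, and 4.44 to 4.80 with 1 replicate left out. The share of noncoding genes with a region was 8.65% with the 500 bp limit, 6.59% with the stricter q, 5.41% in shared regions only, and 7.05% to 9.34% with 1 replicate left out. The share of regions whose nearest coding gene is a developmental transcription factor stayed within its interval (4.47% to 8.40%). Fewer peaks enter under the stricter q, the shared regions and the left-out replicates; what else moves these values was not tested. No paired analysis was possible because the numbered input samples were not analysed here and the ChIP replicates form 1 group. The library that the study lists as more deeply sequenced has the shorter peak list, and the effect of depth on the calls was not tested. A region missing from a replicate was not detected at that library's depth, which is not the same as absent.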
